A study of Mus musculus with 27 samples.

Results

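The genes described here are 10 members of the matrix metalloproteinase system of the mouse. They are the secreted proteinases *Mmp2*, *Mmp3*, *Mmp9*, *Mmp10*, *Mmp11* and *Mmp13*, the membrane-anchored proteinase *Mmp14*, and the tissue inhibitors of metalloproteinases *Timp1*, *Timp2* and *Timp3*. They were chosen by name and are 10 of the 21705 genes that had a value in all 27 libraries. Their level is given as FPKM, the fragment count scaled to the length of the transcript and to the depth of the library, which is a level per length. It was taken by gene symbol where the files give symbols, and otherwise from the assembled locus that covers the gene.

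Matrix metalloproteinases are zinc-dependent enzymes that cut collagens, laminins, proteoglycans and other proteins of the extracellular matrix, and fibroblasts are a main source of them. Most are secreted as inactive precursors, and the Timp proteins block the active site of the mature enzymes. Promoters of several of these genes are textbook targets of AP-1 and Ets factors, which act downstream of the ERK kinase pathway.

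The cells were iMEFs, immortalised mouse embryonic fibroblasts, of a *Setdb1* cKO line in which 4-hydroxytamoxifen (4OHT) triggers deletion of *Setdb1*, a histone H3K9 methyltransferase. All groups, controls included, come from that conditional line and grew in DMEM with 10% FBS. A total RNA experiment on rRNA-depleted libraries holds 3 groups of 3: untreated cells, cells given 4OHT for 4 days and harvested on day 5 (4OHT day 5), and cells kept for more than 2 weeks after 4OHT (long-term KO). The treatment protocol deposited with the long-term KO libraries instead gives a harvest on day 5, so the sources differ on the timing of this group. An siRNA experiment holds 4 groups of 2, all harvested on day 6: control siRNA (siCtrl), siRNA against the DNA methyltransferase *Dnmt1* (siDnmt1), and each of these with 4OHT added on day 0. An inhibitor experiment holds 5 groups of 2: no treatment (Ctrl), the histone deacetylase inhibitor TSA at 150 nM for 24 h, the MEK inhibitor PD0325901 at 1 µM for the last 24 h, 4OHT on day 6 (4OHT day 6), and 4OHT with PD0325901.

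The deposited confidence intervals imply 37.3 to 42.6 M (mega) fragments in a total RNA library, 14.1 to 16 M in an siRNA library and 10.9 to 13.2 M in an inhibitor library. Nothing in the labels says that replicates were separate cultures, so each p below measures the spread between these libraries alone. Levels were compared within an experiment only, since rRNA-depleted libraries and the others were made differently. An exact permutation test of a single gene could give no p below 0.1 between groups of 3 or below 0.333 between groups of 2.

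*Setdb1* and *Dnmt1*, the genes the treatments were aimed at, were read first. *Setdb1* stood at 5.95, 5.53 and 5.16 FPKM in untreated cells, 4.16, 4.20 and 6.52 on 4OHT day 5, and 7.24, 7.32 and 6.96 in the long-term KO. In the siRNA experiment it lay between 5.00 and 7.58 FPKM in all 8 libraries. In the inhibitor experiment it stood at 8.76 and 10.1 FPKM in Ctrl, 9.56 and 9 with TSA, 5.34 and 5.56 with PD0325901, 0 and 5.30 on 4OHT day 6, and 0 in both libraries with 4OHT and PD0325901. A gene-level FPKM counts every exon that is left, so it does not check the loss of a deleted exon, and an exact 0 can be a failed estimate. *Dnmt1* stood at 80.5 and 73.4 FPKM in siCtrl, 12.2 and 10.6 in siDnmt1, 78.7 and 78.3 in 4OHT + siCtrl, and 12.2 and 11.4 in 4OHT + siDnmt1. All 4 siDnmt1 libraries lay far below the other 4. In the total RNA experiment the *Dnmt1* means were 86.7 FPKM untreated, 82.8 on 4OHT day 5 and 84.5 in the long-term KO. In the inhibitor experiment they were 83.7 FPKM in Ctrl, 62 with TSA, 60.3 with PD0325901, 74.6 on 4OHT day 6 and 54.1 with both agents.

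A list of 12 interferon-induced genes and a list of 12 ERK output genes served to check the 4OHT and MEK inhibitor labels, each as the median log2 difference from the control group. The interferon-induced genes stood at 4.88, 4.90 and 4.82 on 4OHT day 5 and at 5.81 and 7.09 on 4OHT day 6. In the library labelled 4OHT + siCtrl replicate 1 their median was 3.60, and in the library labelled 4OHT + siCtrl replicate 2 it was -0.04. On this list the latter stands apart from every other 4OHT library of day 5 or day 6. Member results and counts that change without it are therefore given both ways, an alternative partly chosen after seeing the data. *Irf7*, an interferon regulatory factor, shows the same split, with 279 and 14.6 FPKM in the 4OHT + siCtrl libraries beside 21.2 and 21.5 in siCtrl. Other genes do not: *Timp3* stood at 74.6 and 58.2 FPKM in these libraries beside 152 and 144 in siCtrl. *Dcn* and *Adam8*, given below, also moved the same way in both. The medians of the ERK output genes differed, at 0.27 and -0.56 in replicates 1 and 2. The ERK output genes stood at -2.07 and -2.89 with PD0325901, at -2.12 and -1.43 with 4OHT and PD0325901, and at -1.40, -1.47 and -1.32 in the long-term KO. *Dusp6*, a phosphatase that ERK signalling induces, fell from 44.5 and 46.6 FPKM in Ctrl to 9.82 and 3.94 with PD0325901. It was also low in the long-term KO, at 9.73, 9.60 and 9.06 FPKM beside 28.6, 27.8 and 28.9 in untreated cells. The file labelled PD0325901 replicate 2 has a first line that names replicate 2 of 4OHT with PD0325901. Its interferon median was 0.37, beside 0.33 in PD0325901 replicate 1 and 7.14 in the library labelled 4OHT + PD0325901 replicate 2, so the label was kept. Its *Setdb1* level of 5.56 FPKM cannot tell the labels apart, since 4OHT day 6 replicate 2 stood at 5.30.

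**Figure D1:**
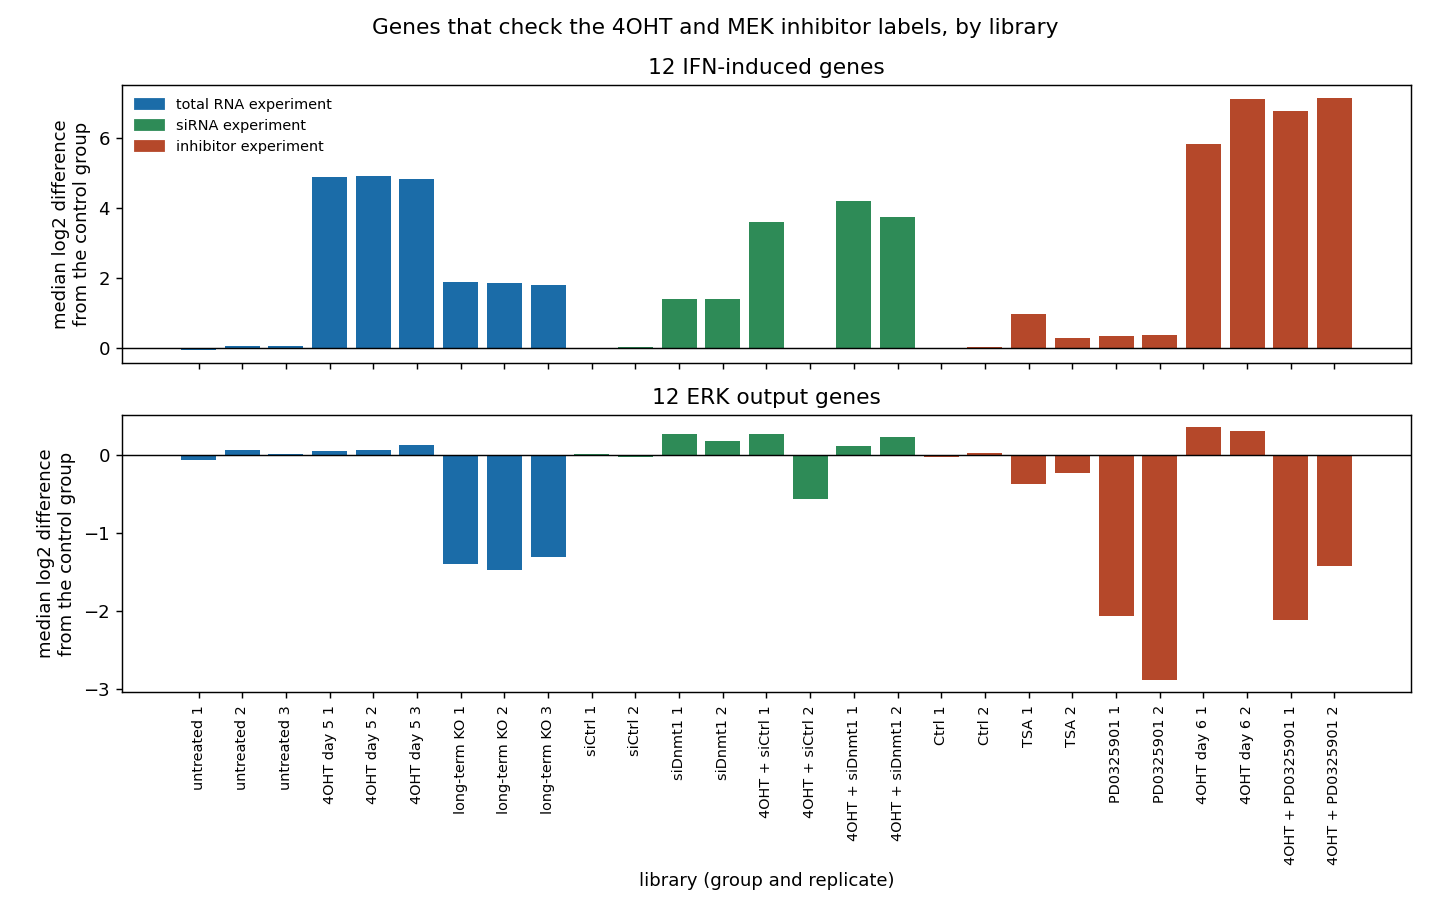
Median log2 difference of 12 interferon-induced genes (upper panel) and 12 ERK output genes (lower panel) from the control group of the same experiment, 1 bar per library. The bar of 4OHT + siCtrl replicate 2 lies at -0.04 in the upper panel, while the other 4OHT libraries of day 5 and day 6 lie at 3.60 or above.

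Most fibroblast markers were well expressed, but *Fap* reached at most 0.366 FPKM and *Lum* at most 1.64 in any library. Of the 12 listed, 10 had a value in the total RNA files and 12 in the others, and *Vim*, coding for vimentin, was the most abundant in most libraries, with *Col1a1* or *S100a4* ahead of it in the others. *Vim* lay between 811 and 938 FPKM in the total RNA libraries, between 925 and 1377 in the siRNA libraries and between 468 and 2202 in the inhibitor libraries. In the total RNA files, which give assembled loci, the values of *S100a4*, a fibroblast marker, *Cd68*, a macrophage marker, and *S100a8*, a neutrophil marker, come in part from loci shared with other genes and are not read as levels. They were 310 to 567 FPKM for *S100a4*, 364 to 775 FPKM in 7 of these libraries and 2.73 and 3.90 in untreated replicate 3 and 4OHT day 5 replicate 2 for *Cd68*, and 1277 FPKM in 4OHT day 5 replicate 3 and 0 in the other 8 for *S100a8*. The remaining 7 macrophage and monocyte markers summed to at most 2.17 FPKM there. Of the neutrophil list, *S100a9* was at 0 in all 27 libraries, and outside the total RNA files the sum reached at most 4.45 FPKM, in TSA replicate 1, with *Ly6g* at 3.75. The 6 endothelial markers summed to 0.129 and 0.211 FPKM in Ctrl, 2.04 and 2.27 with TSA, and 0.917 and 0.806 with PD0325901. They summed to 0.616 and 0.976 FPKM on 4OHT day 6 and to 1.72 and 1.88 with 4OHT and PD0325901. *Kdr* was most abundant in all of these groups but Ctrl, and *Emcn* reached no more than 0.0487 in any library. The summed pluripotency markers reached at most 2.24. Of the chondrocyte and osteoblast list, with *Runx2* mostly the most abundant, the summed level lay between 3.90 and 5.98 FPKM in the total RNA libraries, 11.1 and 17.5 in the siRNA libraries, and 9.66 and 16.2 in the inhibitor libraries. The part of these markers in the results was not tested. In bulk RNA, fewer cells of a type and less RNA per cell cannot be told apart.

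*Mmp14* was the most abundant of the 7 Mmp genes in 26 of 27 libraries, and *Mmp11* took its place in TSA replicate 2. Its share of the summed Mmp level lay between 81.4% and 93.4% except with TSA, where it was 45.3% and 29.0%. The 3 Timp genes were all well expressed, with *Timp1* the most abundant in untreated, 4OHT day 5, Ctrl, TSA and 4OHT day 6 libraries and in 4OHT + siCtrl replicate 1. *Timp3* led in PD0325901 replicate 1, and *Timp2* in the remaining libraries. The summed Timp level stood at 3.30 and 2.87 times the summed Mmp level in Ctrl, 4.49 and 3.02 times with PD0325901, 4.33 and 3.37 times on 4OHT day 6, and 19.9 and 24.2 times with TSA. The TSA libraries therefore stood apart in this ratio of transcript levels, which is no measure of protein. In the total RNA experiment the ratio was 2.10, 1.88 and 4.06 in untreated cells, 2.44, 3.83 and 3.06 on 4OHT day 5, and 1.62, 1.47 and 1.73 in the long-term KO, with the long-term KO below all others. Those 9 ratios rest on *Mmp14*, whose assembled locus was wider than the gene in 7 of these libraries.

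**Figure D2:**
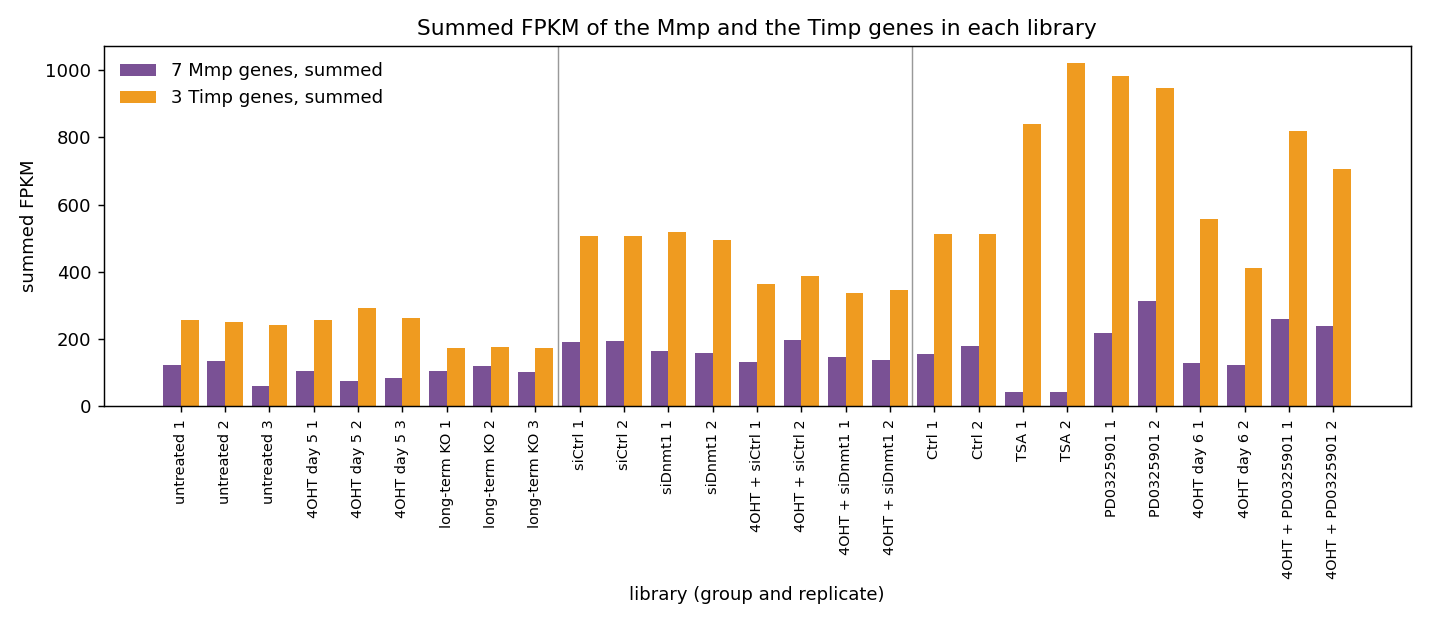
Summed FPKM of the 7 Mmp genes and of the 3 Timp genes in each library, with vertical lines between the experiments. The TSA libraries hold the lowest Mmp sums, 42.2 and 42.1, and sums of the Timp genes of 840 and 1021.

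**Figure D3:**
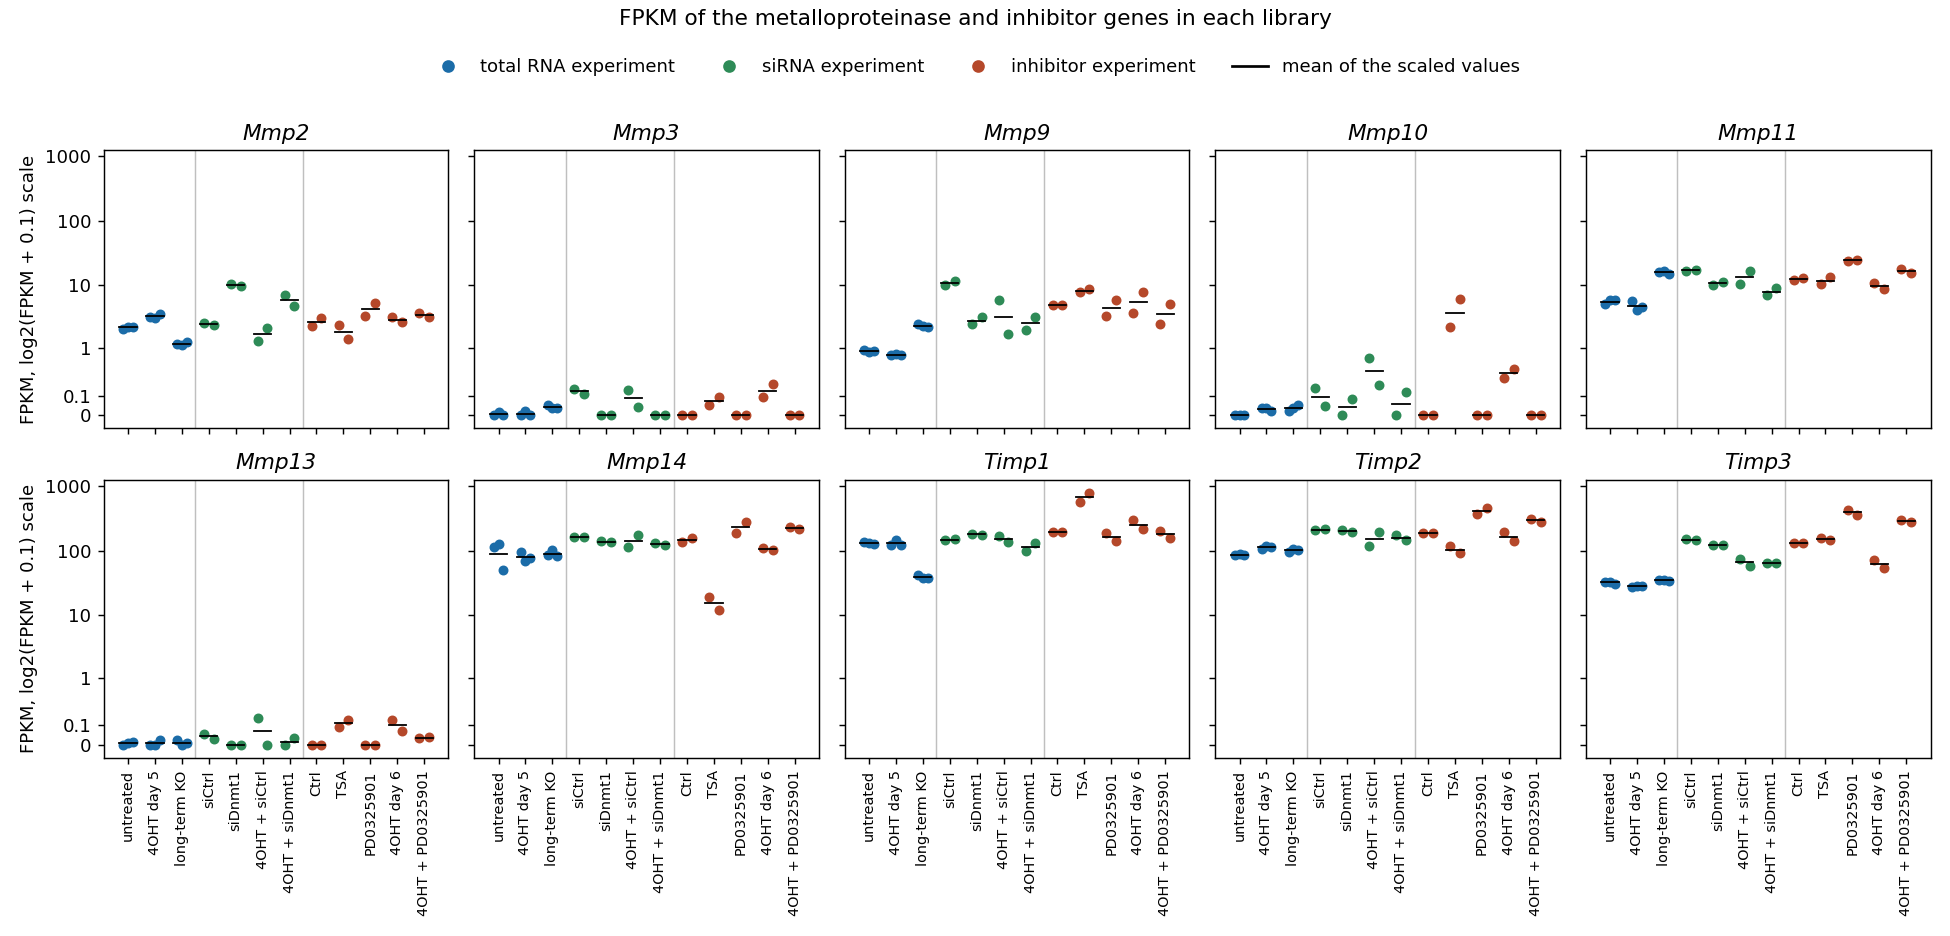
FPKM of each of the 10 genes in each library, on a log2(FPKM + 0.1) scale, as points by group, with the mean of the scaled values as a bar and a color for each experiment. *Mmp3*, *Mmp10* and *Mmp13* lie near 0 in most libraries, while *Mmp14* and the 3 Timp genes lie above 10 in every library.

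Differences were tested with limma on log2(FPKM + 0.1), in each experiment apart and over all genes that reached 1 FPKM in as many libraries as its smallest group holds. A gene was called where its adjusted p was under 0.05 and its fitted level differed by a factor of 2 or more, in 10 comparisons and 2 interactions. The test covered 10682 genes in the total RNA, 11866 in the siRNA and 12480 in the inhibitor experiment. Of the 10 genes, 7 were tested in the total RNA experiment, 7 in the siRNA experiment and 8 in the inhibitor experiment, with *Mmp3* and *Mmp13* never tested and *Mmp10* tested only in the last. *Mmp10* passed the filter there only through the TSA libraries, so it had to differ between some groups. The same limit holds for further listed genes that reached 1 FPKM in 1 group alone, which are named here after their values were seen. In the inhibitor experiment these are *Mmp17*, *Serpinb2*, *Serpine2*, *Adamts9* and *Col2a1* with TSA and *Adamts16* with PD0325901. Those of the siRNA experiment are *Adamts8* with siDnmt1 and *Ctss* with 4OHT + siDnmt1. The total RNA experiment adds *Mmp9*, *Reck* and *Adamts9* in the long-term KO, *Mmp15*, *Dusp4*, *Rsad2* and *Mx2* on 4OHT day 5, and *Adam12* in untreated cells. The list counts below include them, so a call of such a gene against that group is favoured by the filter. Fold changes are on the log2(FPKM + 0.1) scale, which understates those of low genes.

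*Mmp3* and *Mmp10*, the stromelysins, and *Mmp13*, an interstitial collagenase, lie within one cluster of Mmp genes on chromosome 9. In the mm9 assembly of the files, *Mmp13* spans chr9:7272514-7283333, *Mmp3* spans chr9:7445822-7455974 and *Mmp10* spans chr9:7502342-7510242. Their promoters are shown because these 3 genes were near 0 in control cells and each holds 1 match to the AP-1 motif TGANTCA close to the start, searched on both strands. That motif occurs in 7.81% of the 32851 promoters of this length. Since the match was part of the choice, that share gives no test of enrichment. Capitals mark TGANTCA and the Ets motif AGGAAG, also searched on both strands and found in 35.4% of promoters. The sequences are 300 bases each from RefSeq, assembly GRCm38.p6, plus strand: *Mmp3* chr9:7445572-7445871, *Mmp10* chr9:7502092-7502391 and *Mmp13* chr9:7272264-7272563.
Mmp3: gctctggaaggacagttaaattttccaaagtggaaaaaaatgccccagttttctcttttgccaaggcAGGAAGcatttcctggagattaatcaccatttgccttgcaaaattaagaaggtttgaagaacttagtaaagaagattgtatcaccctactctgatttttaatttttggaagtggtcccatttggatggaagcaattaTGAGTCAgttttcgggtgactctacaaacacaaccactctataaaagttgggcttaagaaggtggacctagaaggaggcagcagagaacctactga
Mmp10: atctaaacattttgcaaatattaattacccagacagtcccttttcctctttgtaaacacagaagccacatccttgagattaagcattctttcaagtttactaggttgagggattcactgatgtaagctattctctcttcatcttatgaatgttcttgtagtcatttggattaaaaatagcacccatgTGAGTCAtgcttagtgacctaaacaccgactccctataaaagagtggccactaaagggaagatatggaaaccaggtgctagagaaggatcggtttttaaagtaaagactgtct
Mmp13: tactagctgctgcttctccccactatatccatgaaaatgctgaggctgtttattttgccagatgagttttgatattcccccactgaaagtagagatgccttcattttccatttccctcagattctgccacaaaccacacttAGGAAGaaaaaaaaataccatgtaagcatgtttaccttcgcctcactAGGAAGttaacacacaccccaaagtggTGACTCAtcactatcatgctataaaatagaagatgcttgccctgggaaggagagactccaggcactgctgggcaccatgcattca
Relative to the start, the AP-1 match begins at -46 in *Mmp3*, -63 in *Mmp10* and -35 in *Mmp13*. An Ets match begins at -183 in *Mmp3* and at -109 and -62 in *Mmp13*, and the *Mmp10* window holds none. A match is a run of letters and not evidence of binding. The windows hold 1, 2 and 1 CpG in *Mmp3*, *Mmp10* and *Mmp13*, beside a median of 7 over all promoters. Of the other members, 5 had a promoter entry, and none of those windows holds TGANTCA.

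*Mmp10* stood at 2.23 and 6.17 FPKM with TSA and at 0 in both Ctrl libraries. The TSA values rest on about 46.7 and 130 fragments, and their deposited intervals are 1.58 to 2.88 and 5.09 to 7.25 FPKM. Since the filter admitted *Mmp10* through these libraries, its call with TSA adds nothing to these levels, and no fold is given against a group listed at 0. On 4OHT day 6 it stood at 0.279 and 0.427 FPKM, about 6 and 8 fragments, and at 0 in both PD0325901 libraries and both libraries with 4OHT and PD0325901. It was thus detected on 4OHT day 6 and at 0 when the MEK inhibitor was added, both calls resting on few fragments. *Mmp10* was called higher on 4OHT day 6 (adjusted p 0.0155, range 0.00245 to 0.365 over the alternatives), a call lost without Ctrl replicate 1 (0.0817), Ctrl replicate 2 (0.0838) or 4OHT day 6 replicate 2 (0.0730), and with a pseudocount of 1 FPKM (0.365). It was called lower with 4OHT and PD0325901 than on 4OHT day 6 (adjusted p 0.0388, range 0.00586 to 0.482), a call lost without either replicate of 4OHT day 6 (0.0851 and 0.131) or of 4OHT + PD0325901 (0.138 and 0.0984), with quantile normalization (0.0506) and with a pseudocount of 1 FPKM (0.482). The interaction of 4OHT and PD0325901 was not called for it (adjusted p 0.195).

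In the siRNA experiment *Mmp10* stood at 0.160 and 0.0401 FPKM in siCtrl, 0 and 0.0788 in siDnmt1, 0.674 and 0.191 in 4OHT + siCtrl, and 0 and 0.127 in 4OHT + siDnmt1. The largest of these is about 18 fragments, in 4OHT + siCtrl replicate 1, and the gene was too low to be tested. In the total RNA libraries it never passed 0.0439 FPKM and was at 0 in all 3 untreated libraries. *Mmp3* reached at most 0.205 FPKM, on 4OHT day 6 replicate 2, which is about 4 fragments. It stood at 0.153 and 0.115 FPKM in siCtrl, about 4 and 3 fragments. It lay between 0.0366 and 0.144 FPKM in 4OHT + siCtrl and between 0.0454 and 0.0910 with TSA. It was at 0 in every siDnmt1, 4OHT + siDnmt1, Ctrl, PD0325901 and 4OHT + PD0325901 library. *Mmp13* stood at 0.162 FPKM, about 7 fragments, in 4OHT + siCtrl replicate 1 and at 0 in replicate 2, beside 0.0494 and 0.0248 in siCtrl. In 4OHT + siDnmt1 it reached at most 0.0263 FPKM. It stood at 0.144 and 0.0660 FPKM on 4OHT day 6 and at 0.0880 and 0.147 with TSA. With 4OHT and PD0325901 it lay between 0.0287 and 0.0318 FPKM. It was at 0 in both Ctrl, both PD0325901 and both siDnmt1 libraries. Neither gene was tested under the filter. With no filter on low values, the one alternative that tests them, both were called higher on 4OHT day 6, *Mmp13* also with TSA, and *Mmp3* was called lower with 4OHT and PD0325901 than on 4OHT day 6. Those calls set at most 4 fragments of *Mmp3* and 5 of *Mmp13* against groups at 0 in both libraries.

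**Figure D4:**
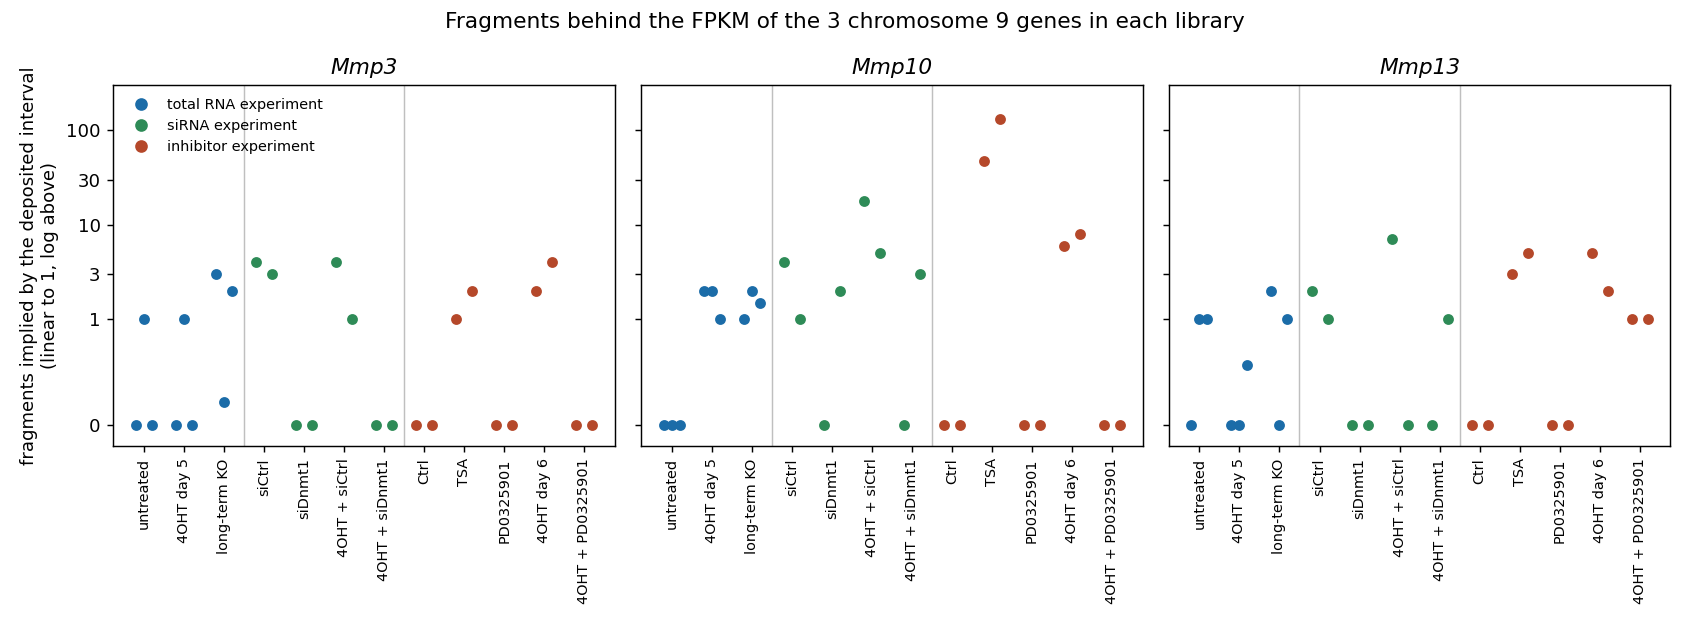
Fragments implied by the deposited interval of *Mmp3*, *Mmp10* and *Mmp13* in each library, on an axis that is linear to 1 and logarithmic above. Only *Mmp10* passes 10 fragments, in the TSA libraries (46.7 and 130) and in 4OHT + siCtrl replicate 1 (18).

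*Mmp2*, a gelatinase that *Mmp14* activates at the cell surface, lies at chr8:95351227-95377319 in mm9. It stood at 2.08, 2.24 and 2.25 FPKM in untreated cells, 3.18, 3.10 and 3.56 on 4OHT day 5, and 1.17, 1.11 and 1.24 in the long-term KO. The 3 groups did not overlap, with day 5 the highest and the long-term KO the lowest. Day 5 against untreated gave a log2 fold change of 0.56 (SE 0.0736, adjusted p 0.00121), short of a fold of 2. The long-term KO against day 5 gave -1.40 (SE 0.0736, adjusted p 3.38e-06), a call lost with a pseudocount of 1 FPKM, where the value was -0.97. Against untreated cells it gave -0.84 (SE 0.0736, adjusted p 4.14e-05), also short of a fold of 2 except with quantile normalization (-1.06).

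With *Dnmt1* siRNA, *Mmp2* stood at 10.6 and 9.87 FPKM beside 2.56 and 2.42 in siCtrl. With 4OHT it stood at 7.22 and 4.75 FPKM in 4OHT + siDnmt1 beside 1.31 and 2.12 in 4OHT + siCtrl. All 4 siDnmt1 libraries lay above all 4 siCtrl libraries. Without 4OHT the log2 fold change was 2.00 (SE 0.29, adjusted p 0.018, range 0.00787 to 0.139 over the alternatives). The call was lost without siCtrl replicate 1 (0.114), siCtrl replicate 2 (0.130), siDnmt1 replicate 1 (0.139) or siDnmt1 replicate 2 (0.123), while the log2 value lay between 1.69 and 2.09 over all alternatives. With 4OHT it was 1.75 (SE 0.29, adjusted p 0.0412, range 0.0237 to 0.149), and without 4OHT + siDnmt1 replicate 1 it was 1.45 and not called (0.149). Without 4OHT + siCtrl replicate 1 or 2 it was 1.42 or 2.08, called both times. The replicate block gave 1.75 as well, with an adjusted p of 0.0920, and the call was also lost with quantile normalization (1.61, 0.0592) and a filter of 5 FPKM (0.0507). The interaction was not called (log2 -0.25, SE 0.41, adjusted p 0.864), with -0.58 or 0.08 without 4OHT + siCtrl replicate 1 or 2. In the inhibitor experiment *Mmp2* lay between 1.43 and 5.29 FPKM, and no comparison called it, though TSA against Ctrl (-0.48, SE 0.326, adjusted p 0.248) was called at -1.21 with quantile normalization.

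*Mmp9*, the other gelatinase, lies at chr2:164773719-164781349 in mm9. It stood at 0.932, 0.840 and 0.879 FPKM in untreated cells, 0.746, 0.782 and 0.75 on 4OHT day 5, and 2.50, 2.28 and 2.17 in the long-term KO. All 3 long-term KO libraries lay above the other 6. Since *Mmp9* passed the filter through the long-term KO alone, its calls there are favoured by the filter and the levels are given as they stand. The log2 fold change was 1.30 against untreated cells and 1.49 against day 5 (SE 0.0787). With a pseudocount of 1 FPKM these were 0.82 and 0.91, below a fold of 2. In the siRNA experiment *Mmp9* stood at 10.0 and 11.8 FPKM in siCtrl, 2.49 and 3.14 in siDnmt1, 5.86 and 1.67 in 4OHT + siCtrl, and 1.98 and 3.19 in 4OHT + siDnmt1. Both siCtrl libraries lay above the other 6, and the 4OHT + siCtrl replicates lay far apart. SiDnmt1 against siCtrl gave -1.92 (SE 0.57, adjusted p 0.104), which was called without 4OHT + siCtrl replicate 2 (also -1.92). 4OHT + siCtrl against siCtrl gave -1.76 (SE 0.57, adjusted p 0.0998), which was -0.88 and not called without 4OHT + siCtrl replicate 2, and -2.64 and called without replicate 1, where that library stands alone. The interaction, 1.61 (SE 0.806, adjusted p 0.589), was 0.74 and not called without replicate 2, and 2.49 and called without replicate 1. In the inhibitor experiment *Mmp9* lay between 2.48 and 8.67 FPKM, with no call.

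*Mmp11*, which furin-like proteases activate inside the cell, lies at chr10:75385967-75395247 in mm9. It stood at 5.06, 5.90 and 5.83 FPKM in untreated cells, 5.81, 4.10 and 4.67 on 4OHT day 5, and 16.0, 16.5 and 15.3 in the long-term KO. The long-term KO libraries lay above all others, while day 5 overlapped with untreated. The long-term KO gave a log2 fold change of 1.49 against untreated cells (SE 0.124, adjusted p 3.17e-05) and 1.71 against day 5 (SE 0.124, adjusted p 1.77e-05), called under every alternative run. With PD0325901 *Mmp11* stood at 24.2 and 24.6 FPKM beside 12 and 13 in Ctrl. With 4OHT it stood at 18.3 and 15.9 FPKM with the inhibitor and 10.7 and 8.75 without. PD0325901 libraries lay above their controls in both settings, at log2 0.97 (SE 0.165, adjusted p 0.0123) and 0.81 (SE 0.165, adjusted p 0.0362), short of a fold of 2. The first reached a fold of 2 with median-ratio scaling (1.04) and quantile normalization (1.05). In the siRNA experiment *Mmp11* lay between 7.09 and 17.2 FPKM, and 4OHT + siDnmt1 against 4OHT + siCtrl gave -0.74 (SE 0.24, adjusted p 0.18), which was -0.41 and not called without 4OHT + siCtrl replicate 2, and -1.07 and called without replicate 1.

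*Mmp14*, the membrane-anchored collagenase and activator of *Mmp2*, lies at chr14:55050441-55060095 in mm9. With TSA it stood at 19.1 and 12.2 FPKM beside 136 and 158 in Ctrl. It stood at 188 and 278 FPKM with PD0325901, 111 and 103 on 4OHT day 6, and 236 and 216 with 4OHT and PD0325901. The TSA libraries lay below all others, and the 4 PD0325901 libraries lay above the other 6. TSA against Ctrl gave a log2 fold change of -3.25 (SE 0.245, adjusted p 6.09e-05), called under every alternative run. 4OHT + PD0325901 against 4OHT day 6 gave 1.08 (SE 0.245, adjusted p 0.0478, range 0.0441 to 0.173 over the alternatives). That call was lost under 9 of 12 alternatives, among them the replicate block (1.08, adjusted p 0.0654) and leaving out either replicate of 4OHT day 6 (0.128 and 0.151) or of 4OHT + PD0325901 (0.173 and 0.102). PD0325901 against Ctrl gave 0.64 (SE 0.245, adjusted p 0.14), and the interaction gave 0.44 (SE 0.346, adjusted p 0.595). In the siRNA experiment *Mmp14* lay between 112 and 175 FPKM, with no call. In the total RNA experiment it stood at 114, 125 and 50.6 FPKM in untreated cells, 95.6, 68.2 and 76.7 on day 5, and 86.6, 101 and 82.1 in the long-term KO. The assembled loci behind 114, 125 and 95.6 start 4695 bases upstream and also cover *Mrpl52*, and 4 of the other 6 are wider than the gene by 789 to 856 bases downstream, so these 9 values are not on one footing. Its locus was also wider in all 8 siRNA libraries and in 9 of 10 inhibitor libraries, TSA replicate 1 being the exception.

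*Timp1*, a secreted inhibitor of most Mmp proteins, lies at chrX:20447292-20451863 in mm9, inside an intron of *Syn1*. *Timp3*, the inhibitor that binds to the matrix itself, lies at chr10:85763157-85812250, inside an intron of *Syn3*. Their promoters are shown because both genes were called in more than 1 experiment. Both are from RefSeq, GRCm38.p6, plus strand: *Timp1* chrX:20869916-20870215 and *Timp3* chr10:86300162-86300461, with AGGAAG in capitals.
Timp1: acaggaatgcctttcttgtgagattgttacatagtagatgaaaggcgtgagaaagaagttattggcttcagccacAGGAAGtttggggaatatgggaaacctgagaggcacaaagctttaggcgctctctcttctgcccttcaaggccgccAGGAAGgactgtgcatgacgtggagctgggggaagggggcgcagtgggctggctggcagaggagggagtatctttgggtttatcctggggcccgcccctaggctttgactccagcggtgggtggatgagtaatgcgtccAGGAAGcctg
Timp3: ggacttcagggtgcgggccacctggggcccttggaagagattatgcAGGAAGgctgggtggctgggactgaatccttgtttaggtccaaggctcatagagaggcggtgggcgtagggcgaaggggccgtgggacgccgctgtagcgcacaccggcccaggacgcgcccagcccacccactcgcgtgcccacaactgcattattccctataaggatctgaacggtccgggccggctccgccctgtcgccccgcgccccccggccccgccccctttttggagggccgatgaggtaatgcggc
The *Timp1* window holds AGGAAG at -175, -99 and 41, and the *Timp3* window holds it at -204. *Timp1* has 8 CpG in the window and *Timp3* has 24, beside 25 in *Timp2*, 19 in *Mmp11* and 10 in *Mmp14*.

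*Timp1* stood at 138, 131 and 126 FPKM in untreated cells, 122, 145 and 122 on 4OHT day 5, and 42.1, 38.0 and 37.9 in the long-term KO. All 3 long-term KO libraries lay below the other 6, and day 5 overlapped with untreated. The long-term KO gave a log2 fold change of -1.74 against untreated cells (SE 0.0809, adjusted p 1.69e-06) and -1.72 against day 5 (SE 0.0809, adjusted p 2.02e-06). With TSA it stood at 569 and 782 FPKM beside 196 and 197 in Ctrl. The TSA libraries were the highest of the experiment, at a log2 fold change of 1.76 (SE 0.229, adjusted p 0.000596). These 3 calls held under every alternative run. The other inhibitor libraries lay between 143 and 293 FPKM and the siRNA libraries between 99.5 and 184, with no call.

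*Timp2*, which blocks Mmp proteins and also joins *Mmp14* and pro-*Mmp2* in an activating complex, lies at chr11:118162375-118216725 in mm9. Its locus also covers *BC100451* in all 9 total RNA libraries, in siDnmt1 replicate 2 and in replicate 1 of 4OHT + siCtrl, 4OHT + siDnmt1, Ctrl, 4OHT day 6 and 4OHT + PD0325901, and in none of the others, so its values in the siRNA and inhibitor experiments mix both kinds of locus. It stood at 85.8, 88.0 and 84.7 FPKM in untreated cells, 108, 118 and 112 on 4OHT day 5, and 96.1, 105 and 103 in the long-term KO. Untreated libraries were the lowest and day 5 libraries the highest, without overlap. The *Timp2* locus was wider than the gene in 2 of these 9 libraries, so the values are not all on one footing. Day 5 against untreated gave a log2 fold change of 0.38 (SE 0.0461, adjusted p 0.000799), far short of a fold of 2. With PD0325901 *Timp2* stood at 370 and 451 FPKM beside 184 and 186 in Ctrl. With 4OHT it stood at 313 and 275 FPKM with the inhibitor and at 194 and 140 without. All 4 PD0325901 libraries lay above the other 6 of the experiment. PD0325901 against Ctrl gave 1.14 (SE 0.193, adjusted p 0.0121, range 0.0114 to 0.0815 over the alternatives). The call was lost without Ctrl replicate 1 (0.0795), Ctrl replicate 2 (0.0815) or PD0325901 replicate 2 (log2 1.00, just under a fold of 2), and with quantile normalization (0.99). With 4OHT it gave 0.83 (SE 0.193, adjusted p 0.0512), called at 1.07 without 4OHT day 6 replicate 1. With TSA it stood at 116 and 90.5 FPKM, at a log2 fold change of -0.85 (SE 0.193, adjusted p 0.00772), and without TSA replicate 1 it was called at -1.03.

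*Timp3* stood at 428 and 354 FPKM with PD0325901 beside 132 and 130 in Ctrl, and at 70.8 and 53.9 on 4OHT day 6 beside 300 and 274 with 4OHT and PD0325901. Each of these 4 groups lay apart from the others. PD0325901 raised it by a log2 fold change of 1.57 without 4OHT (SE 0.15, adjusted p 0.0013) and 2.21 with 4OHT (SE 0.15, adjusted p 0.000485), called under every alternative run. The interaction of 4OHT and PD0325901 was not called (0.65, SE 0.213, adjusted p 0.228). 4OHT day 6 against Ctrl gave -1.09 (SE 0.15, adjusted p 0.00372), and without 4OHT day 6 replicate 2 it gave -0.89, short of a fold of 2. With TSA it stood at 155 and 148 FPKM, just above Ctrl, and was not called (0.21, SE 0.15, adjusted p 0.277). In the siRNA experiment *Timp3* stood at 152 and 144 FPKM in siCtrl, 124 and 123 in siDnmt1, 74.6 and 58.2 in 4OHT + siCtrl, and 64.5 and 64.6 in 4OHT + siDnmt1. All 4 libraries with 4OHT lay below all 4 without. 4OHT + siCtrl against siCtrl gave -1.16 (SE 0.125, adjusted p 0.00641, range 0.00102 to 0.0601), a call lost without siCtrl replicate 1 (0.0592) or siCtrl replicate 2 (0.0601). Without 4OHT + siCtrl replicate 2 it gave -0.99, just short of a fold of 2. On 4OHT day 5 *Timp3* stood at 27.7, 28.5 and 27.9 FPKM beside 32.8, 33.2 and 30.8 untreated and 34.5, 35.2 and 34.1 in the long-term KO. Day 5 was the lowest group there too, by -0.20 against untreated (SE 0.0355, adjusted p 0.00464).

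**Figure D5:**
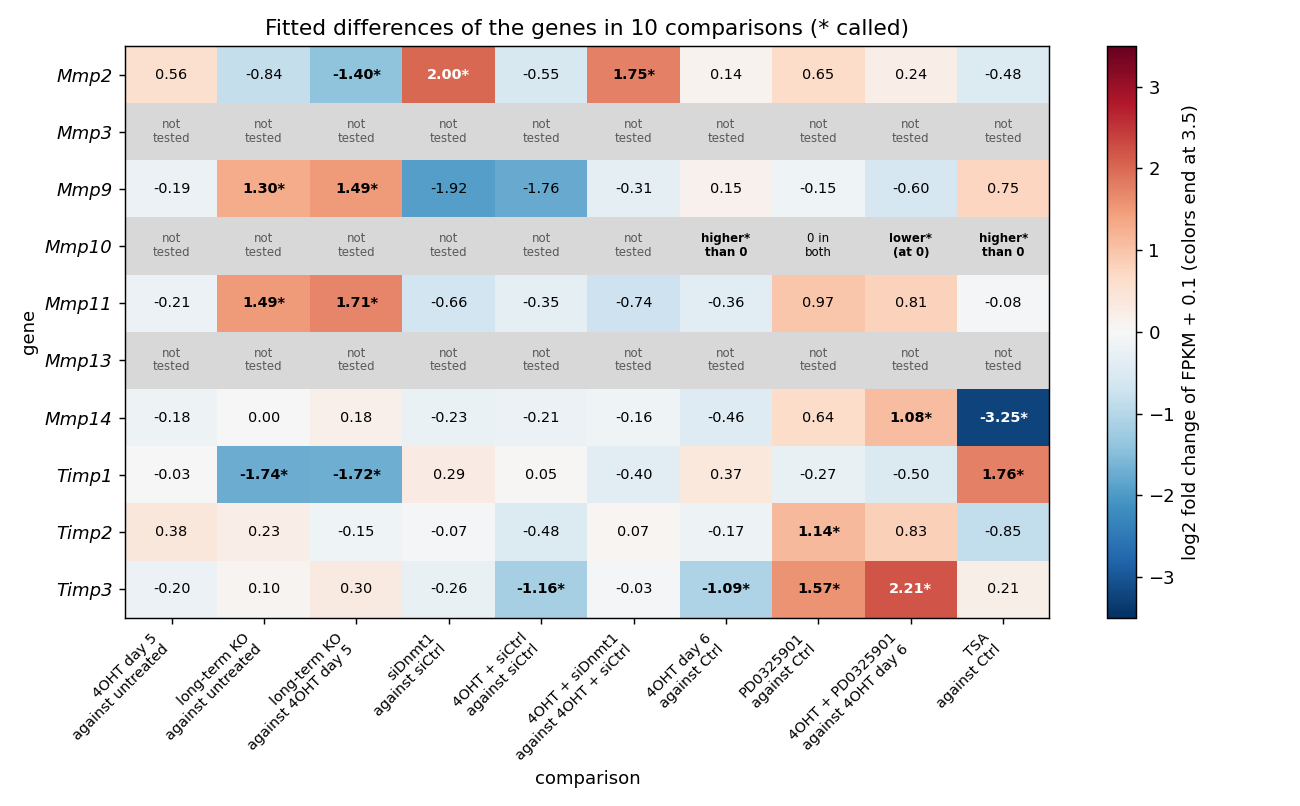
Fitted log2 fold change of FPKM + 0.1 for each gene (vertical) in each of 10 comparisons (horizontal), with colors that end at 3.5 and an asterisk on called values. Grey cells were not tested or lie against a group listed at 0, as for *Mmp10*. *Mmp14* with TSA (-3.25) and *Timp3* with 4OHT + PD0325901 (2.21) are among the called values.

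The first comparison asks what 4OHT had done to these genes by day 5. No member was called by limma among the 7 tested, beside 3.44% of all genes. An unadjusted p under 0.05 was reached by 4 members and 41.1% of all genes, and an adjusted p under 0.05 without the fold limit by 3 members, *Mmp2*, *Timp2* and *Timp3*, and 31.2% of all genes. Of all genes, 233 were called higher and 134 lower, or 199 and 172 with quantile normalization, and the median log2 fold change was -0.18 for the members and 0.0032 over all genes tested. Among matrix substrates 4 of 21 tested fell and none was called higher, with a list median of -0.14. The fibrillar collagen gene *Col3a1* fell from 260, 243 and 251 FPKM to 90.8, 94.0 and 86.5 (log2 -1.47, SE 0.0438, adjusted p 6.75e-07). The small proteoglycan gene *Dcn* fell from 12.2, 11.4 and 11.1 FPKM to 3.41, 3.84 and 4.18 (log2 -1.58, SE 0.0777, adjusted p 1.03e-05). Of 14 tested activators, inhibitors and surface partners of matrix proteolysis, 1 was called, *Thbs1*, whose protein thrombospondin-1 binds Mmp proteins. It fell to 59.5, 59.2 and 60.9 FPKM from 157, 147 and 142 (log2 -1.31, SE 0.0386, adjusted p 6.71e-07). Of 16 tested Adam and Adamts proteases, 2 were called. *Adam8* rose (log2 2.07, SE 0.172, adjusted p 0.000138), while *Adam12*, at 2.99, 2.85 and 2.95 FPKM untreated and 0.463, 0.601 and 0.630 on day 5, passed the filter through untreated cells alone. Of 4 other Mmp and Timp genes tested, limma called 0, and 2 reached an unadjusted p under 0.05. All 12 interferon-induced genes were called higher, among them *Rsad2* and *Mx2*, which passed the filter through day 5 alone, and of 12 ERK output genes limma called 0, with 7 at an unadjusted p under 0.05. The 9 fibroblast markers other than *S100a4*, *Vim* most abundant, summed to 1293, 1368 and 1313 FPKM beside 1607, 1582 and 1578 untreated. The 6 epithelial markers summed to 4.19, 5.27 and 4.35 FPKM beside 1.56, 1.23 and 1.22, with *Krt8* most abundant on day 5 (1.97, 2.61 and 2.35). The part of either list was not tested.

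In the long-term KO against untreated cells, *Mmp11* rose and *Timp1* fell, 2 of the 6 members tested other than *Mmp9*, beside 13.7% of all genes. *Mmp9* is called higher too, which makes 3 of 7, but enters both counts through the long-term KO itself. Without the fold limit 6 of all 7 passed, as did 60.9% of all genes. The members' median log2 fold change was 0.10 and that of all genes tested 0.0751. Of 4 other Mmp and Timp genes tested, 2 were called higher, with a list median of 0.58. *Mmp23* rose from 2.74, 3.09 and 2.51 FPKM to 8.03, 7.14 and 7.69 (log2 1.43, SE 0.135, adjusted p 6.22e-05). *Mmp16*, a membrane-anchored relative of *Mmp14*, stood at 2.37, 2.19 and 2.23 FPKM and then 4.79, 4.92 and 5.15 (log2 1.10), a call lost with a pseudocount of 1 FPKM and with quantile normalization. Of 16 Adam and Adamts proteases, 5 rose and 2 fell, with a median of 0.61. *Adamts1*, which cuts large proteoglycans, rose from 6.61, 6.29 and 6.19 FPKM to 91.4, 91.3 and 96.7 (log2 3.85, SE 0.0399, adjusted p 2.66e-09). *Adamts9* and *Adam12*, 1 of the 5 and 1 of the 2, passed the filter through the long-term KO alone and untreated cells alone. *Adamts4* stood at 8.85, 9.78 and 6.11 FPKM in untreated cells and was listed at 0 in all 3 long-term KO libraries.

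Of 14 activators, inhibitors and surface partners, 4 fell in the long-term KO and 1 was called higher, *Reck*, which passed the filter through that group alone, with a median of -0.43. *Thbs1* fell to 55.8, 56.0 and 55.5 FPKM (log2 -1.41, SE 0.0386, adjusted p 1.43e-07) and *Thbs2* from 12.9, 12.8 and 12.8 to 5.09, 4.8 and 5.04 (log2 -1.35). Of 21 matrix substrates, 3 rose and 1 fell, with a median of 0.16. The basement membrane collagen gene *Col4a1* rose from 49.9, 51.2 and 52.0 FPKM to 130, 129 and 133 (log2 1.35, SE 0.0302, adjusted p 6.1e-08). *Spp1*, coding for osteopontin, a known Mmp substrate, fell from 408, 397 and 365 FPKM to 70.9, 70.0 and 67.1 (log2 -2.49, SE 0.0497, adjusted p 3.95e-08). Of the check lists, 10 of 12 ERK output genes were called lower and 9 of 12 interferon-induced genes higher, and their part in the member results was not tested. The 9 fibroblast markers other than *S100a4* summed to 1607, 1582 and 1578 FPKM in untreated cells and 1760, 1738 and 1685 in the long-term KO, with *Vim* most abundant. The epithelial markers summed to 1.56, 1.23 and 1.22 FPKM in untreated cells and 0.377, 0.576 and 0.620 in the long-term KO, with *Epcam* most abundant. The part of either list was not tested.

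The long-term KO against 4OHT day 5, which asks what differs between early and late cells, called *Mmp11* higher and *Mmp2* and *Timp1* lower, 3 of the 6 members other than *Mmp9*, beside 12.3% of all genes. With *Mmp9*, which the filter admits through the long-term KO, the count is 4 of 7. The members' median was 0.18 and that of all genes 0.0369. These values share libraries with both comparisons above. Of 4 other Mmp and Timp genes, *Mmp16* (log2 1.52) and *Mmp23* (log2 1.35) were called higher. Of 16 Adam and Adamts proteases, 5 were called higher, *Adamts9* with the same limit among them, and 1 fell, with a median of 0.38. *Adamts5*, a main aggrecanase, rose from 2.36, 1.98 and 2.06 FPKM to 19.2, 20.4 and 19.2 (log2 3.14, adjusted p 5.66e-08). Of 21 matrix substrates, 5 rose and 1 fell, with a median of 0.35. *Col3a1* stood at 248, 233 and 240 FPKM (log2 1.41) and *Dcn* at 13.4, 12.5 and 13.3 (log2 1.76) in the long-term KO, both near their untreated levels. Of 14 activators and partners, 2 were called lower, with 1 higher and 3 lower without 4OHT day 5 replicate 2, and 1 lower without long-term KO replicate 2. Of the check lists, 10 of 12 ERK output genes (median -1.72) and all 12 interferon-induced genes (median -2.70) were called lower, with *Dusp4*, *Rsad2* and *Mx2* admitted by the filter through day 5 alone. The epithelial markers summed to 0.377, 0.576 and 0.620 FPKM beside 4.19, 5.27 and 4.35 on day 5, and the 9 fibroblast markers to 1760, 1738 and 1685 beside 1293, 1368 and 1313. The part of these lists was not tested.

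With *Dnmt1* siRNA, *Mmp2* was the 1 member called of 7 tested, beside 4.36% of all genes, with member and background medians of -0.23 and -0.0853. The count was 0 without either siCtrl or either siDnmt1 replicate, and 2 without 4OHT + siCtrl replicate 2, which adds *Mmp9*, an alternative chosen after seeing the data. The share of all genes was 1.28% or 1.05% without siCtrl replicate 1 or 2, 1.04% or 1.08% without siDnmt1 replicate 1 or 2, and 7.54% without 4OHT + siCtrl replicate 2. Of 23 matrix substrates, 2 were called lower, with a median of -0.44. *Dcn* fell from 49.4 and 49.2 FPKM to 16.3 and 16.3 (log2 -1.59, SE 0.109, adjusted p 0.00147) under every alternative run, and the substrate count was 1 without any one of those 4 libraries. Of 16 activators and partners 2 were called higher, *Thbs2* (log2 2.55) among them. Of 17 Adam and Adamts proteases 2 were called higher, 1 of them *Adamts8*, admitted through siDnmt1 alone, and 1 lower, and of 5 other Mmp and Timp genes 1 lower, *Mmp16* (log2 -1.33). Leaving out any one of those 4 libraries brought the activator and Adam counts to 0, and siCtrl replicate 1, siCtrl replicate 2 or siDnmt1 replicate 1 that of the other Mmp and Timp genes. The activator count was 4 without 4OHT + siCtrl replicate 2. Of 12 interferon-induced genes limma called 0, with 0 at an unadjusted p under 0.05, and 7 without 4OHT + siCtrl replicate 2. Their median log2 fold change was 1.38, and all 12 lay above the siCtrl mean in both siDnmt1 libraries, whose medians were 1.40 and 1.38. The 6 epithelial markers summed to 56.0 and 55.7 FPKM in siDnmt1 beside 1.05 and 0.677 in siCtrl, with *Krt8* most abundant (36.7 and 36.4), *Krt18* next (17.6 and 17.8), *Krt5* at no more than 0.0615 and *Cdh1* at no more than 0.937. The fibroblast markers summed to 3693 and 3861 FPKM beside 4598 and 4719. *Vim* was most abundant in siDnmt1, at 1317 and 1372, and *Col1a1* in siCtrl, at 1106 and 1148. The part of either list in the *Mmp2* result was not tested.

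With 4OHT and control siRNA, *Timp3* fell, 1 of 7 members beside 5.71% of all genes, with medians of -0.48 and 0.0868. The count was 0 without siCtrl replicate 1, siCtrl replicate 2 or 4OHT + siCtrl replicate 2, and 2 without 4OHT + siCtrl replicate 1, where *Mmp9* joined. The share of all genes was 1.46% or 0.91% without siCtrl replicate 1 or 2, and 9.88% or 10.1% without 4OHT + siCtrl replicate 1 or 2. Among 23 matrix substrates, 7 were called lower, with a median of -0.85, and 3 or 2 without siCtrl replicate 1 or 2. *Dcn* fell from 49.4 and 49.2 FPKM to 1.40 and 1.39 (log2 -5.05, SE 0.109, adjusted p 2.77e-05). Of 17 Adam and Adamts proteases 1 rose and 3 were called lower, and 1 was called in all, higher, without either siCtrl replicate. *Adam8* rose from 0.398 and 0.210 FPKM to 7.64 and 14.4 (log2 4.75, SE 0.417, adjusted p 0.00372). Of 16 activators and partners 2 were called higher and 1 lower, *Thbs1* (log2 -1.76). None of these was called without siCtrl replicate 1 or 2, and 4 higher and 1 lower were called without 4OHT + siCtrl replicate 1. Of 5 other Mmp and Timp genes limma called 0, with 1 at an unadjusted p under 0.05. Of 12 interferon-induced genes, 1 was called higher, 12 without 4OHT + siCtrl replicate 2, and 0 without siCtrl replicate 1 or 2. The epithelial markers summed to 1.18 and 12.6 FPKM in the 4OHT + siCtrl libraries, with *Krt8* at 6.97 and *Krt18* at 3.67 in replicate 2, and the fibroblast markers to 2093 and 3481 FPKM beside 4598 and 4719 in siCtrl. The part of either list was not tested.

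*Dnmt1* siRNA in cells given 4OHT again called *Mmp2* higher, 1 of 7 members beside 2.08% of all genes, with medians of -0.16 and -0.018. The count was 0 without 4OHT + siDnmt1 replicate 1, with the replicate block, with quantile normalization and with a filter of 5 FPKM, and 2 without 4OHT + siCtrl replicate 1, where *Mmp11* joined. Without 4OHT + siCtrl replicate 2 it was 1. The share of all genes was 8.71% or 3.42% without 4OHT + siCtrl replicate 1 or 2, and 1.34% without 4OHT + siDnmt1 replicate 1. Of 23 matrix substrates 1 rose and 2 fell, with a median of -0.37, and 1 rose and 5 fell without 4OHT + siCtrl replicate 1. The microfibrillar collagen gene *Col6a1* fell from 114 and 112 FPKM to 55.5 and 44.3 (log2 -1.19, SE 0.115, adjusted p 0.00718). *Dcn* stood at 1.40 and 1.39 FPKM and then 3.92 and 3.63 (log2 1.38, adjusted p 0.0034), a call lost with a pseudocount of 1 FPKM. Of 16 activators and partners, 1 was called higher, *Ctss*, which passed the filter through 4OHT + siDnmt1 alone, 0 without 4OHT + siDnmt1 replicate 1, and 2 higher and 1 lower without 4OHT + siCtrl replicate 2. Of 5 other Mmp and Timp genes and 17 Adam and Adamts proteases, limma called 0 and 0, with 1 and 2 at an unadjusted p under 0.05. For the Adam and Adamts list, 1 was called lower without 4OHT + siCtrl replicate 2 or 4OHT + siDnmt1 replicate 1. The epithelial markers summed to 86.6 and 53.9 FPKM in 4OHT + siDnmt1, with *Krt8* at 43.3 and 27.1 and *Krt18* at 40.7 and 24.2, and their part was not tested.

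The interaction of 4OHT and siDnmt1, which asks whether the response to *Dnmt1* siRNA differs with 4OHT, called 0.388% of all genes, and 4.37% or 1.23% without 4OHT + siCtrl replicate 1 or 2, 0.228% without siCtrl replicate 2 and 0.935% without 4OHT + siDnmt1 replicate 2. Limma called 0 of 7 members, with 1 at an unadjusted p under 0.05 (9.64% of all genes), *Timp1* (log2 -0.69, SE 0.239, adjusted p 0.459). Without 4OHT + siCtrl replicate 1 the count was 1, *Mmp9*. Among matrix substrates 1 of 23 was called, *Dcn* (log2 2.96, SE 0.155, adjusted p 0.00161), whose drop with 4OHT was smaller on the log2 scale where *Dnmt1* siRNA was also given. Of these substrates 1 was called higher and 1 lower without 4OHT + siCtrl replicate 1.

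On 4OHT day 6, *Timp3* fell, the 1 call among members other than *Mmp10*, beside 11% of all genes. *Mmp10* was called higher, which makes 2 of 8, but it was tested only through the TSA libraries and is set against Ctrl libraries listed at 0. Member and background medians were -0.02 and 0.0041, and the count was 0 without 4OHT day 6 replicate 2 and 1 without either Ctrl replicate, where the share of all genes was 5.69% or 5.51%. Of 23 matrix substrates, 2 rose and 6 fell, with a median of -0.24. *Col3a1* fell from 302 and 308 FPKM to 19.4 and 26.1 (log2 -3.76, SE 0.392, adjusted p 0.00142), *Dcn* from 11.3 and 11.7 to 1.10 and 2.09 (log2 -2.84), and *Col6a1* from 424 and 441 to 82.1 and 97.4 (log2 -2.27). Of 18 Adam and Adamts proteases 1 rose and 4 were called lower, with a median of -0.46. *Adam8* rose from 0.437 and 0.454 FPKM to 5.10 and 6.53 (log2 3.43, SE 0.283, adjusted p 0.000541). *Adamts5* fell from 6.12 and 6.52 FPKM to 0.906 and 0.959 (log2 -2.64, SE 0.315, adjusted p 0.00233) and *Adamts4* from 16.5 and 15.1 to 1.96 and 3.62 (log2 -2.52). This list gave 1 higher and 2 lower without Ctrl replicate 1, Ctrl replicate 2 or 4OHT day 6 replicate 2. Of 19 activators and partners 4 were called higher, and 1 without either Ctrl replicate. *Serpinb2* is among the 4, at 0 and 0 FPKM and then 0.643 and 0.641, but was tested only because the TSA libraries hold 3.08 and 7.64. Of 6 other Mmp and Timp genes, 1 was called higher, and 0 without Ctrl replicate 1, Ctrl replicate 2 or 4OHT day 6 replicate 1. The summed fibroblast markers stood at 3663 and 3885 FPKM in Ctrl and 2696 and 2604 on 4OHT day 6. The most abundant in Ctrl were *S100a4* at 1034 in replicate 1 and *Vim* at 1085 in replicate 2. On 4OHT day 6 *Vim* led at 1498 and 1419, so it was higher while the other markers together were lower. Their part was not tested.

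The MEK inhibitor alone raised *Timp2* and *Timp3*, 2 of 8 members beside 6.73% of all genes. The members' median log2 fold change was 0.65 and that of all genes tested -0.0709. The count was 1, *Timp3*, without Ctrl replicate 1, Ctrl replicate 2 or PD0325901 replicate 2. The share of all genes was 2.83% or 2.62% without Ctrl replicate 1 or 2, and 4.41% without PD0325901 replicate 1. Of 23 matrix substrates 7 were called higher and 1 lower, with a median of 0.39. *Spp1* fell from 425 and 410 FPKM to 25.3 and 21.5 (log2 -4.16, SE 0.171, adjusted p 3.18e-05). *Tnc*, coding for the matrix protein tenascin C, rose from 19.5 and 20.7 FPKM to 76.4 and 77.9 (log2 1.93, SE 0.191, adjusted p 0.00147). Without Ctrl replicate 1 or 2 the higher substrates numbered 3 or 4. Of 19 activators and partners 3 were called higher, with a median of 0.45, and among them *Pcsk6*, a proprotein convertase of the furin family, rose from 0.418 and 0.422 FPKM to 4.28 and 3.71 (log2 2.97, SE 0.368, adjusted p 0.00382). That list gave 1 without Ctrl replicate 1, Ctrl replicate 2 or PD0325901 replicate 1, and 4 higher and 1 lower without PD0325901 replicate 2. Of 6 other Mmp and Timp genes 2 were called higher, *Mmp15* (log2 1.76) among them, and of 18 Adam and Adamts proteases 2, with *Adamts16* admitted through PD0325901 alone. Neither list kept a call without Ctrl replicate 1 or 2, and without PD0325901 replicate 1 they gave 1 lower and 1 higher. Of 12 ERK output genes 9 were called lower, and 5 without either Ctrl replicate. The summed fibroblast markers stood at 4488 and 4975 FPKM beside 3663 and 3885 in Ctrl, with *Col1a1* most abundant. The epithelial markers summed to 1.97 and 0.640 FPKM beside 1.28 and 1.39 in Ctrl. Among them, *Krt14* stood at 1.65 and 0.473 FPKM beside 0 in both Ctrl libraries. The part of either list was not tested.

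Where 4OHT and the MEK inhibitor were combined, *Timp3* rose and *Mmp14* was called higher against 4OHT day 6, beside 3.51% of all genes. These were the 2 calls among members other than *Mmp10*. *Mmp10* was called lower, which makes 3 of 8, but it was tested only through the TSA libraries and is listed at 0 here. Member and background medians were 0.52 and 0.038, and the count was 2 with the replicate block. It was 2 without 4OHT day 6 replicate 1, and 1 without 4OHT day 6 replicate 2 or either 4OHT + PD0325901 replicate. The 23 matrix substrates held 7 called higher and 4 lower, with a median of 0.53. *Dcn* rose from 1.10 and 2.09 FPKM to 10.7 and 14.8 (log2 2.97, SE 0.412, adjusted p 0.00867). *Spp1* fell from 391 and 326 FPKM to 52.0 and 58.4 (log2 -2.69, SE 0.171, adjusted p 0.000396), and *Lamb1*, a laminin chain, from 63.7 and 55.2 to 15.7 and 22.1 (log2 -1.67). The substrate list gave 3 higher and 2 lower without 4OHT day 6 replicate 1, and 5 higher and 2 lower without 4OHT + PD0325901 replicate 1. Of 18 Adam and Adamts proteases 2 were called higher and 4 lower, and *Adamts5* rose from 0.906 and 0.959 FPKM to 7.60 and 7.59 (log2 2.90, SE 0.315, adjusted p 0.00369). It gave 1 higher and 1 lower without either 4OHT day 6 replicate or 4OHT + PD0325901 replicate 1. Of 19 activators and partners 2 were called higher and 1 lower, *Serpinb2*, which was listed at 0 in both libraries. That list gave 1 lower alone without 4OHT + PD0325901 replicate 1. Of 6 other Mmp and Timp genes 1 was called higher, and 0 without either 4OHT day 6 replicate or 4OHT + PD0325901 replicate 1. Of 12 ERK output genes 9 were called lower. The summed fibroblast markers stood at 3073 and 3034 FPKM beside 2696 and 2604 on 4OHT day 6. The most abundant were *Col1a1*, at 960 and 1016, with the inhibitor and *Vim*, at 1498 and 1419, without. The endothelial markers summed to 1.72 and 1.88 FPKM beside 0.616 and 0.976, and the epithelial markers to 3.31 and 2.59 beside 2.52 and 0.814. Among the latter, *Krt14* stood at 2.18 and 1.73 FPKM beside 0.0776 and 0.0642. The part of these markers was not tested.

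The interaction of 4OHT and PD0325901 called 0.545% of all genes, and 0.321% without Ctrl replicate 1, 1.2% without PD0325901 replicate 2 and 0.841% without 4OHT + PD0325901 replicate 2. Limma called 0 of 8 members, with *Mmp10* and *Timp3* the 2 at an unadjusted p under 0.05 (15% of all genes). The responses of *Timp3*, *Timp2* and *Mmp14* to the MEK inhibitor are therefore not shown to differ with 4OHT. Of 18 Adam and Adamts proteases *Adam19* was called (log2 -1.25, adjusted p 0.0492) and of 23 matrix substrates *Tnc* (log2 -1.76, with an adjusted p just under the threshold). Of the 8 libraries involved, leaving out any but PD0325901 replicate 2 lost the *Adam19* call (log2 -1.17 without 4OHT + PD0325901 replicate 1). The replicate block lost it as well, at the same log2 value and an adjusted p of 0.0654 (range 0.0384 to 0.183 over the alternatives). Over genes, the deviations of libraries of like number from their group means gave an r of 0.144 between PD0325901 and 4OHT day 6. It was 0.176 between PD0325901 and 4OHT + PD0325901, and 0.241 between the last and 4OHT day 6, though genes are not independent replicates. These are the highest values over the 20 like-number pairs of the inhibitor experiment, whose median was 0.0326 and lowest -0.0378. With groups of 2, unlike numbers give the same r with the opposite sign. Leaving out any but 4OHT day 6 replicate 1 and 4OHT + PD0325901 replicate 2 lost the *Tnc* call (log2 -1.49 without 4OHT + PD0325901 replicate 1), as did quantile normalization and no filter on low values.

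With TSA, *Timp1* rose and *Mmp14* fell, 2 of the 7 members other than *Mmp10*, beside 31.1% of all genes, so their share was near the background. *Mmp10* is called too, which makes 3 of 8, but enters both counts through the TSA libraries themselves, as do 5 of the other listed genes. The median of the 8 was 0.07 and that of all genes 0.094, and quantile normalization moved the median of all genes by -0.11. Relative to that shift these directions were unchanged. Of 6 other Mmp and Timp genes, 3 rose and 1 fell, with a median of 1.09. *Mmp17*, which is held in the membrane by a lipid anchor, is one of the 3, at 0.0646 and 0.0948 FPKM in Ctrl and 5.86 and 7.68 with TSA, and it passed the filter through TSA alone, with at most 0.885 in the other groups. *Mmp15*, a close relative of *Mmp14*, rose to 3.68 and 4.89 FPKM (log2 2.19, SE 0.304, adjusted p 0.000817), and *Mmp23* fell from 6.16 and 6.82 to 0.413 and 0.295 (log2 -3.87, SE 0.277, adjusted p 5.12e-05). Of 19 activators and partners, 8 rose and 3 fell, with a median of 1.12. *Plat*, coding for tissue plasminogen activator, rose from 43.8 and 42.7 FPKM to 261 and 355 (log2 2.81, SE 0.321, adjusted p 0.000341). Of 18 Adam and Adamts proteases, 3 rose and 4 fell, with a median of 0.05.

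Of 23 matrix substrates, 4 rose and 9 fell with TSA, with a median of -0.66. *Col3a1* fell to 35.0 and 18.8 FPKM (log2 -3.57, SE 0.392, adjusted p 0.000285) and *Col5a2*, another fibrillar collagen gene, from 274 and 275 to 52.7 and 33.3 (log2 -2.71, SE 0.207, adjusted p 6.43e-05). The summed fibroblast markers stood at 2973 and 3014 FPKM beside 3663 and 3885 in Ctrl. *Vim* made 2095 and 2202 of the TSA sums. In Ctrl the most abundant were *S100a4* at 1034 in replicate 1 and *Vim* at 1085 in replicate 2. The other markers together were thus lower with TSA, while *Vim* was higher. The macrophage and monocyte markers, 8 of 9 with a value, summed to 68.3 and 62.9 FPKM beside 6.07 and 5.60 in Ctrl, and *Cd68* alone made 66.9 and 60.5 of that. Of the others, *Itgam* reached at most 0.0402 FPKM in any library, *Ptprc* 0.131, *Lyz2* 0.171, *Csf1r* 0.533, *Mrc1* 0.712 and *Cd14* 2.87. *Adgre1* was at 0 in every library. Genes of this list at 0 numbered 4 and 5 in the Ctrl libraries and 1 and 2 with TSA. The 6 epithelial markers summed to 34.3 and 40.9 FPKM beside 1.28 and 1.39 in Ctrl. *Epcam* stood at 28.1 and 29.2 FPKM beside 0.839 and 1.09 in Ctrl, and *Krt14* at 2.99 and 8.50 beside 0 in both. *Cdh1* rose as well, to 2.60 and 2.49 FPKM from 0.268 and 0.203. *Krt5* reached no more than 0.0615 in any library. The part of these markers in the member results was not tested.

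The 4OHT effect could be read in each experiment, against that experiment's own controls. On day 5, on day 6 with control siRNA and on day 6 alone, *Timp3* differed by -0.20, -1.16 and -1.09 on the log2 scale, *Mmp2* by 0.56, -0.55 and 0.14, and *Timp2* by 0.38, -0.48 and -0.17. *Mmp11* differed by -0.21, -0.35 and -0.36 and *Mmp14* by -0.18, -0.21 and -0.46, with no call. *Mmp9* differed by -0.19, -1.76 and 0.15 and *Timp1* by -0.03, 0.05 and 0.37, also with no call. *Timp3* libraries lay below all their controls in all 3 experiments. The fitted values of *Mmp11* and *Mmp14* were negative in all 3 as well, but both overlapped with the controls on day 5, as *Mmp14* did with control siRNA, and *Mmp14* turned to 0.06 on day 5 without untreated replicate 2. *Mmp2*, *Mmp9*, *Timp1* and *Timp2* were not of one direction. The values with control siRNA rest on 4OHT + siCtrl libraries that differ. Without replicate 1 or 2 of that group they were -1.34 or -0.99 for *Timp3*, -0.22 or -0.87 for *Mmp2*, -0.13 or -0.83 for *Timp2*, -0.02 or -0.68 for *Mmp11*, and 0.11 or -0.53 for *Mmp14*. For *Mmp9* these values were -2.64 or -0.88, and for *Timp1* -0.12 or 0.21. Differences between experiments were not tested.

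Of the 10363 genes tested in all 3 experiments, those most like each member over the 27 libraries were found by Pearson's r of log2 levels, each minus the control mean of its experiment. Libraries of a group share their treatment, so r describes these libraries only. *Mmp2* was most like *Ndn* (0.85), *Gm8773* (0.80) and *Klf4* (0.76). *Mmp9* was most like *Fbln1* and *Arhgap28* (both 0.92), and *Mmp11* most like *Cbr2* (0.96). *Mmp14* was most like *Gpx7* (0.94), *Timp1* most like *Tufm* (0.94), and *Timp3* most like *Flrt3* and *Dlc1* (both 0.92). *Timp2* was most like *Sparc* (0.92), a matrix protein gene, and *Cdh3* (0.91). Among the members, *Mmp14* and *Timp2* gave r of 0.72, *Timp2* and *Timp3* 0.68, and *Mmp9* and *Mmp11* 0.65, while *Mmp2* and *Mmp9* gave -0.67 and *Mmp14* and *Timp1* -0.66.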

How the data were processed

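Levels were the FPKM values deposited by the authors for 27 libraries, made with TopHat2 2.0.12 and Cufflinks on mm9 with RefSeq genes. The authors' comparison tables (fold changes and p values) were not used. In the total RNA files, which name loci and not genes, a gene took the narrowest locus that covers 95% of it. Genes that reached 1 FPKM in enough libraries to fill the smallest group of their experiment were tested on log2(FPKM + 0.1) with limma 3.58.1 (lmFit, contrasts.fit, eBayes with trend) in R 4.3.3, each experiment in 1 fit, two-sided, with Benjamini-Hochberg adjustment over all genes tested. Called means an adjusted p under 0.05 with a difference of 2-fold or more. Tables and figures were made in Python 3.11.15 with matplotlib 3.10.9, pandas 2.3.3, numpy 2.4.6 and scipy 1.17.1, and the code was tested on simulated data. The members and lists were chosen with earlier results of these data known. Of each list, up to 4 called genes with the largest log2 fold change were open to naming, and 3 like genes per member. Alternatives were other pseudocounts, filters and scalings, no fold limit, a replicate block, loci that cover 1 gene only, and leaving out each library. Promoters came from RefSeq (GRCm38.p6). Protein sequences were not searched. One gene of the list of activators, inhibitors and surface partners is counted there but not reported by name.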

Additional observations from a re-analysis of the deposited data

Results flagged for a closer look

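Under 4OHT, the *Mmp2* libraries lay on opposite sides of their controls in different experiments. The log2 fold change was 0.562 on 4OHT day 5 against untreated (adjusted p 0.00121), where all 3 libraries lay above all untreated ones, and -0.547 in 4OHT + siCtrl against siCtrl, where both lay below without passing the test (adjusted p 0.254, range 0.0740 to 0.601 over the alternatives). It was -0.22 or -0.87 without 4OHT + siCtrl replicate 1 or 2. On 4OHT day 6 the value was 0.14, with libraries that overlapped. The difference between the experiments was not tested.

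For *Timp2* the log2 fold change was 0.384 on 4OHT day 5 against untreated (adjusted p 0.000799) and -0.477 in 4OHT + siCtrl against siCtrl, which did not pass the test either (adjusted p 0.21, range 0.0106 to 0.470 over the alternatives). It was -0.13 or -0.83 without 4OHT + siCtrl replicate 1 or 2, of which the former has a locus that also covers BC100451. On 4OHT day 6 the value was -0.17, with overlap, and this difference was not tested either. The experiments differ in day, transfection and library preparation, which cannot be told apart here.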

How the results depend on the processing

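Of 20 calls of members, tried under 256 alternatives in all, 218 kept their direction and call, 38 lost the call and 0 changed direction. Of 69 member results that were not called, 21 of 920 alternatives gave a call, and 39 changed sign, with adjusted p of 0.147 or more. Counts of members called moved as follows, and the cause was not tested. Without a fold limit the count was 3 on 4OHT day 5 and 6 in the long-term KO, both against untreated. With a pseudocount of 1 FPKM it was 2 in the long-term KO against day 5 and 1 on 4OHT day 6. With a filter of 5 FPKM, which tests fewer genes, it was 2 in the long-term KO against day 5, 0 for 4OHT + siDnmt1 against 4OHT + siCtrl and 1 on 4OHT day 6, and with no filter it was 4 on 4OHT day 6, where *Mmp3* and *Mmp13* joined. Quantile normalization gave 0 for 4OHT + siDnmt1 against 4OHT + siCtrl and 1 for 4OHT + PD0325901 against 4OHT day 6. The replicate block gave 0 for 4OHT + siDnmt1 against 4OHT + siCtrl, 2 for 4OHT + PD0325901 against 4OHT day 6, and no other count more than 1.5 times off.

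Leaving out 1 library gave 0 to 2 members for siDnmt1, for 4OHT + siCtrl, for 4OHT + siDnmt1 and for 4OHT day 6, 0 to 1 for the interaction of 4OHT and siDnmt1, and 1 to 2 for PD0325901 and for 4OHT + PD0325901. A lone library left in a group of 2 was assumed to vary like the other groups. Scaling moved the split of all called genes into higher and lower. With quantile normalization it was 199 and 172 on 4OHT day 5 (233 and 134 before), 628 and 771 in the long-term KO against untreated (831 and 634), 2022 and 2149 with TSA (2330 and 1547), 185 and 378 in 4OHT + siCtrl (306 and 371) and 377 and 335 with PD0325901 (354 and 486). With the same normalization, the split of the long-term KO against day 5 turned from 703 higher and 612 lower to 648 and 691. The median of all genes shifted by -0.11 with TSA, -0.10 in the interaction of 4OHT and siDnmt1 and -0.12 in that of 4OHT and PD0325901. *Mmp3* and *Mmp13* stood at 7 fragments or fewer in every library and were tested only with no filter on low values.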
